A study of Homo sapiens with 4 samples.

Results

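The genes described here are 9 genes of peroxisome proliferator-activated receptor (PPAR) signaling and fatty acid oxidation, chosen by symbol out of 38137 genes in the count table. They are the receptors PPARA, PPARD and PPARG, the coactivator PPARGC1A, and the metabolic genes PDK4, CPT1A, PLIN2, ACADVL and UCP2. All 9 were found, and all 9 had a mean count of at least 20 reads, as did 19393 genes in all. The tumors were xenografts of A549, an established human lung adenocarcinoma line, grown in the flank of male BALB/c athymic nude mice that were 6 weeks old. Athymic mice lack mature T cells, so the tumors grew without that arm of immunity.

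The study asked whether treadmill running changes the response of such tumors to X-rays, and sequenced polyA RNA from 1 tumor library in each of 4 groups. In the combination group, mice ran at 8.0 m/min for 30 min and their tumors then received 2 Gy of 6 MV X-rays on the same day. The radiation group received the X-rays alone and the exercise group ran alone, each on the same schedule of 3 sessions a week for 2 weeks, while the control group received neither. There were 5 mice per group, and the sources used here do not say how many tumors went into each library. With 1 library per group no value has a replicate error, so every interval below is a 95% interval for counting error only.

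PPARs are nuclear receptors that bind fatty acids and their derivatives, pair with a retinoid X receptor on DNA and switch on genes for fatty acid import, storage and oxidation. PPARGC1A (PGC-1α) joins these receptors and raises mitochondrial gene transcription, and in muscle it is induced by exercise. In lung cancer cells, fatty acid oxidation is an alternative to glucose as a fuel, and PDK4 favors it by blocking the conversion of pyruvate to acetyl-CoA.

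The libraries held between 33432637 and 35408705 reads in genes, so depth differed little between groups. Counts were scaled by the trimmed mean of M-values (TMM, which corrects for differing library composition) and are given as CPM, which is relative to the reads in genes of each library. The 11 epithelial and A549 markers were all measured and summed to 15360 CPM in the combination library, 14400 in the radiation library, 15420 in the exercise library and 14870 in the control library. The 7 markers of surfactant-making alveolar type 2 cells summed to 8.0 CPM in the combination library, 6.642 in the radiation library, 4.254 in the exercise library and 5.937 in the control library. SFTPC and SFTPA2 had at most 3 reads in any library, while SFTPD had 112 to 184 and LAMP3 28 to 73, with LAMP3 at least 2-fold higher in the combination than in the control and the exercise library. The labelled cell line and the measured markers therefore did not conflict.

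The main differences among these genes lay between irradiated and unirradiated tumors. PDK4, UCP2, PLIN2 and ACADVL were higher in both irradiated libraries than in both unirradiated ones, as were 26.2% of all genes tested. PPARGC1A was lower in both, as were 27.6%, but only its radiation library stood apart beyond counting error. The receptor genes and CPT1A differed little between the 4 libraries. In bulk tumor RNA, fewer cells of a type and less RNA per cell cannot be told apart.

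At a 2-fold threshold few of the 9 genes differed between any pair of libraries. In the combination against the control library, 0 of 9 were higher and 0 of 9 were lower, where 2.27% of all genes tested were higher and 1.75% were lower. In the radiation against the control library, 0 of 9 were higher (1.89% of all genes) and 1 of 9, PPARGC1A, was lower (0.897% of all genes). In the exercise against the control library, 0 of 9 were higher (0.83% of all genes) and 0 of 9 were lower (0.696% of all genes). In the combination against the radiation library, 1 of 9, again PPARGC1A, was higher (0.418% of all genes) and 0 of 9 were lower (0.861% of all genes). In the combination against the exercise library, 1 of 9, PLIN2, was higher (2.92% of all genes) and 0 of 9 were lower (3.06% of all genes). The comparisons share the control, radiation, exercise or combination library among them, so they are not independent of each other.

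**Figure D1:**
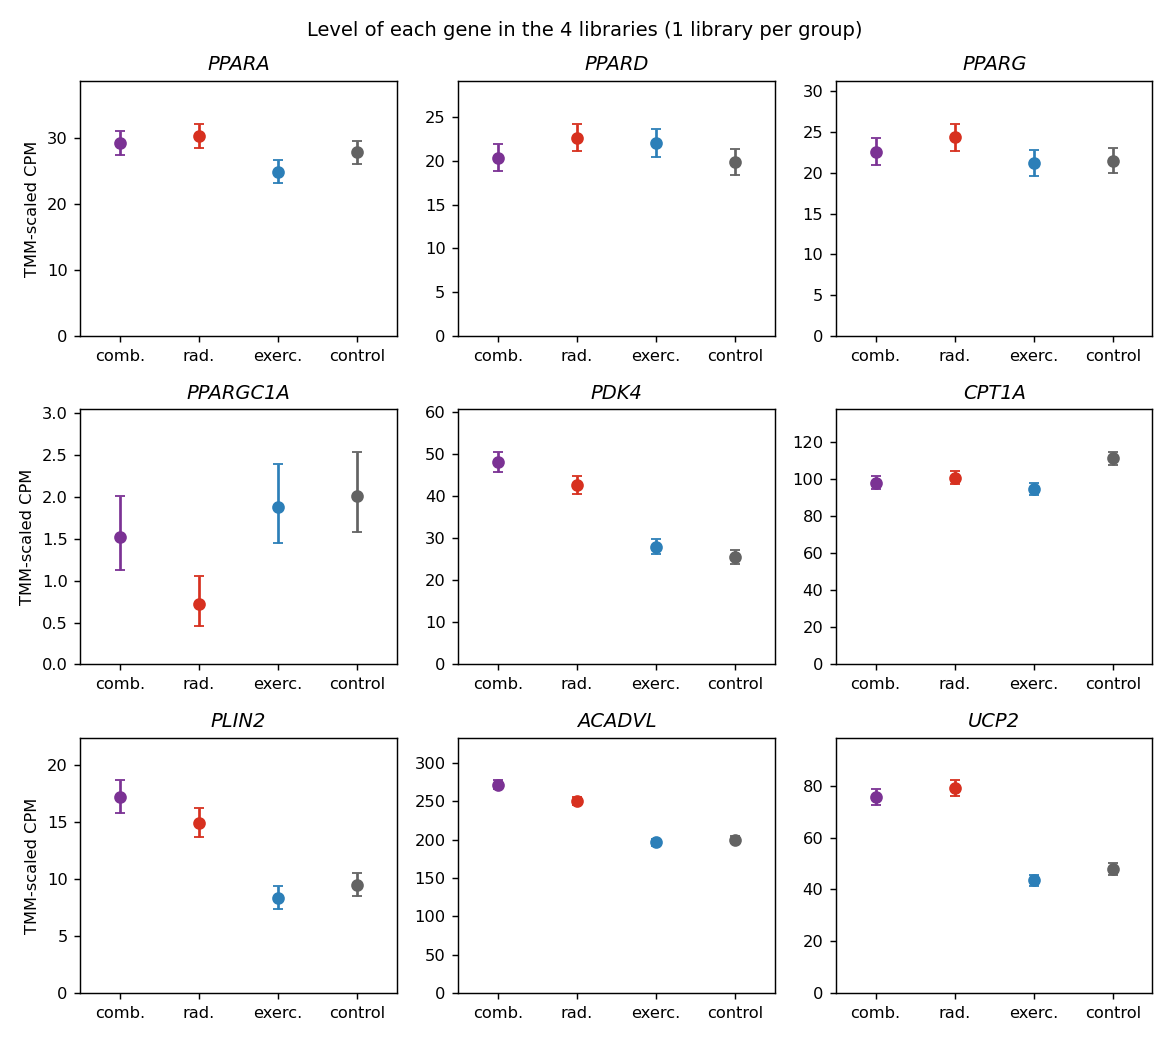
Level of each of the 9 genes in TMM-scaled CPM (vertical axes, each from 0) in the combination, radiation, exercise and control libraries; points are single libraries and bars are 95% Poisson counting intervals. PDK4, PLIN2, ACADVL and UCP2 sit higher in both irradiated libraries, and PPARGC1A is lowest in the radiation library at 0.719 CPM.

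PPARA, the receptor that drives fatty acid oxidation in liver and heart, had 955 reads (29.2 CPM) in the combination library, 1053 (30.3 CPM) in the radiation library, 859 (24.9 CPM) in the exercise library and 993 (27.8 CPM) in the control library. Both irradiated libraries were above both unirradiated ones, yet only the step between the control and the exercise library exceeded counting error, at 1.12-fold (95% interval 1.02 to 1.23). PPARD, the broadly expressed receptor linked to oxidation in muscle, had 667 reads (20.4 CPM) in the combination library, 787 (22.6 CPM) in the radiation library, 761 (22.0 CPM) in the exercise library and 709 (19.9 CPM) in the control library. Its irradiated and unirradiated libraries overlapped, and no neighbors in its order of levels differed beyond counting error. PPARG, the receptor that governs fat cell formation, had 738 reads (22.5 CPM) in the combination library, 846 (24.3 CPM) in the radiation library, 731 (21.2 CPM) in the exercise library and 767 (21.5 CPM) in the control library. Its irradiated libraries were above the unirradiated ones without overlap, but again no neighboring pair differed beyond counting error. Some pairs further apart did. In the radiation against the control library, PPARG was 1.13-fold higher (1.03 to 1.25) and PPARD 1.14-fold (1.03 to 1.26). PPARA was 1.17-fold higher in the combination than in the exercise library (1.07 to 1.29). Against the control, PPARA in the radiation library (1.09, 0.997 to 1.19) and each receptor in the combination library had intervals that include 1. Over the 4 libraries the highest level was 1.22 times the lowest for PPARA, 1.14 times for PPARD and 1.15 times for PPARG. The radiation library held the highest level of each receptor.

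PPARGC1A, the coactivator, was the least abundant of the 9 genes and the one that varied most. It had 50 reads (1.53 CPM) in the combination library, 25 reads (0.719 CPM) in the radiation library, 65 reads (1.88 CPM) in the exercise library and 72 reads (2.02 CPM) in the control library. The radiation library stood below the other 3, which did not differ from each other beyond counting error. PPARGC1A in the radiation library was 0.357 times the control level (0.217 to 0.569), a log2 ratio of -1.47. In the combination library it was 2.12 times the radiation level (1.29 to 3.58) and 0.757 times the control level, the last with an interval of 0.517 to 1.10 that includes 1. In the exercise library it was 0.933 times the control level (0.657 to 1.32). These values rest on 25 to 72 reads over a gene that spans 680885 bases of chromosome 4.

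The genes were located by symbol in RefSeq on GRCh38, the build named for the files. PPARA lies at chr22:46150526-46243756 on the plus strand, PPARD at chr6:35342558-35428178 plus and PPARG at chr3:12287368-12434344 plus. PPARGC1A lies at chr4:23792021-24472905 minus, PDK4 at chr7:95583499-95596516 minus and CPT1A at chr11:68754620-68844277 minus. PLIN2 lies at chr9:19108388-19127492 minus, ACADVL at chr17:7217125-7225266 plus and UCP2 at chr11:73974672-73983202 minus. ACADVL shares 2717 bases with DLG4 on the opposite strand, and the strand setting of the counting is not given in the sources used here, so reads of this pair may have been mixed. The deposited FPKM values imply lengths of 99.9% to 103.0% of the whole gene span for each of the 9 genes, so reads in introns may be among the counts.

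The 250 bases upstream of the annotated start are shown for PDK4, PLIN2 and UCP2, whose levels differed most upward between irradiated and unirradiated tumors, and for PPARGC1A, which was lowest in the radiation library. They are RefSeq sequences on GRCh38.p14, read along the gene's strand; all 9 genes had an entry, 18 windows in all. Capitals mark matches, on either strand, to the letters AGGTCA (the core of a PPAR half-site), ACGTG (the core bound by hypoxia-inducible factors) or GGGCGG (a GC box). The PDK4 window is chr7:95596517-95596766, the PLIN2 window chr9:19127493-19127742, the UCP2 window chr11:73983203-73983452 and the PPARGC1A window chr4:24472906-24473155, all on the minus strand.
PDK4: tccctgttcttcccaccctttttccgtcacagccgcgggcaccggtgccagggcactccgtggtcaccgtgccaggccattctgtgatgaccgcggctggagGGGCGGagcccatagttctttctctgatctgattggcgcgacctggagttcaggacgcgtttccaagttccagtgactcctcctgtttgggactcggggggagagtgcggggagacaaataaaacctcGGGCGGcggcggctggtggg
PLIN2: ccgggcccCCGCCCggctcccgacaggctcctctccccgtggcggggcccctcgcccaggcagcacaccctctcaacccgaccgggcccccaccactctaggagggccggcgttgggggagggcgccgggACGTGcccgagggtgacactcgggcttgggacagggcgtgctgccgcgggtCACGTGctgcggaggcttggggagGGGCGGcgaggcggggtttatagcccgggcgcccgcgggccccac
UCP2: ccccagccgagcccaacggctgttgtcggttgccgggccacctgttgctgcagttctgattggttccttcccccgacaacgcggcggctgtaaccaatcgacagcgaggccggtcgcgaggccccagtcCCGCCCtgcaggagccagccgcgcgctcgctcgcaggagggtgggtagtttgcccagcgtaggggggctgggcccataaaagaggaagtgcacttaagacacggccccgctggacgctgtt
PPARGC1A: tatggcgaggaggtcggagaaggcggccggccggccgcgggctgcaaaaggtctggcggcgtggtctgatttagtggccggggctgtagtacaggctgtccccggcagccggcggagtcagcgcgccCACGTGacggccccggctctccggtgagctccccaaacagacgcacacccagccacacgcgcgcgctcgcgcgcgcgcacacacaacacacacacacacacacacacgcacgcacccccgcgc
UCP2 and PPARGC1A have 2 annotated windows each, of which the more upstream is shown. PDK4 held 2 GC boxes, and UCP2 held 1 in the window shown and 3 in the other. PLIN2 held 2 GC boxes and 3 matches to ACGTG, of which 2 are the same palindrome read on both strands, and PPARGC1A held that palindrome alone, counted as 2, with no match in its other window. A PPAR half-site was found only near PPARG among the 18 windows, and the full DR1 element (AGGTCA repeated on 1 strand with 1 base between) in none. Among 35116 promoter windows of the same length in RefSeq, 12.1% held AGGTCA, 18.5% held ACGTG, 42.6% held GGGCGG and 0.0171% held DR1. These matches describe the letters in the windows only.

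PDK4 encodes the kinase that inactivates pyruvate dehydrogenase, and is a classic PPAR target. It had 1577 reads (48.2 CPM) in the combination library, 1482 (42.6 CPM) in the radiation library, 966 (28.0 CPM) in the exercise library and 916 (25.7 CPM) in the control library. Irradiated and unirradiated libraries did not overlap, and the exercise and control libraries did not differ beyond counting error. PDK4 was 1.88-fold higher in the combination than in the control library (1.73 to 2.04) and 1.66-fold higher in the radiation than in the control library (1.53 to 1.81). The combination library also exceeded the exercise library by 1.72-fold (1.59 to 1.87) and the radiation library by 1.13-fold (1.05 to 1.21).

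UCP2, a carrier of the inner mitochondrial membrane, had 2481 reads (75.8 CPM) in the combination library, 2752 (79.1 CPM) in the radiation library, 1502 (43.5 CPM) in the exercise library and 1707 (47.8 CPM) in the control library. The irradiated libraries did not differ from each other beyond counting error, and both were above the others. UCP2 was 1.58-fold higher in the combination than in the control library (1.49 to 1.69), 1.66-fold higher in the radiation than in the control library (1.56 to 1.76) and 1.74-fold higher in the combination than in the exercise library (1.63 to 1.86). The exercise library was 0.909 times the control level (0.848 to 0.975).

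PLIN2 coats cytoplasmic lipid droplets and is abundant in cells that store neutral lipid. It had 562 reads (17.2 CPM) in the combination library, 518 (14.9 CPM) in the radiation library, 288 (8.34 CPM) in the exercise library and 338 (9.47 CPM) in the control library. The combination library was highest and the exercise library lowest, and irradiated and unirradiated libraries did not overlap. The contrast of these extremes was the 2.06-fold difference named above (1.78 to 2.38, log2 ratio 1.04). Against the control, PLIN2 was 1.81-fold higher in the combination library (1.58 to 2.08) and 1.57-fold higher in the radiation library (1.37 to 1.81). The combination library exceeded the radiation library by 1.15-fold (1.02 to 1.30), and the exercise library was 0.881 times the control level, with an interval of 0.750 to 1.03 that includes 1.

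ACADVL, the very long-chain acyl-CoA dehydrogenase that opens mitochondrial beta-oxidation, was the most abundant of the 9 genes. It had 8899 reads (272 CPM) in the combination library, 8706 (250.3 CPM) in the radiation library, 6800 (197 CPM) in the exercise library and 7135 (199.8 CPM) in the control library. The order of levels was the same as for PLIN2, with smaller steps. ACADVL was 1.36-fold higher in the combination than in the control library (1.32 to 1.40) and 1.25-fold higher in the radiation than in the control library (1.21 to 1.29).

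CPT1A, which makes acylcarnitines and so controls the entry of long-chain fatty acids into mitochondria, had a pattern of its own. It had 3216 reads (98.2 CPM) in the combination library, 3507 (101 CPM) in the radiation library, 3271 (94.7 CPM) in the exercise library and 3969 (111 CPM) in the control library. The control library was highest, and the 3 treated libraries followed without a step beyond counting error between neighbors. CPT1A was 0.883 times the control level in the combination library (0.843 to 0.926), 0.907 times in the radiation library (0.867 to 0.95) and 0.852 times in the exercise library (0.813 to 0.892). It was the one gene of the 9 whose exercised libraries were both below both sedentary ones, and 0 of 9 were above, where 13.2% of all genes were below and 11.6% above.

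Per kilobase of exon, on the CPM scale and averaged over the 4 libraries, the levels fell in the order ACADVL (47.2), UCP2 (19.0), CPT1A (15.4), PDK4 (7.99), PPARG (4.93), PPARD (4.76), PLIN2 (2.45), PPARA (2.12) and PPARGC1A (0.141). The exon length is the union of GENCODE v29 exons, and the order of genes of like level depends on it. On the deposited FPKM scale, with the gene span as the length, ACADVL, UCP2 and PPARGC1A kept the places 1, 2 and 9, while PPARG moved from place 5 to place 8.

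**Figure D2:**
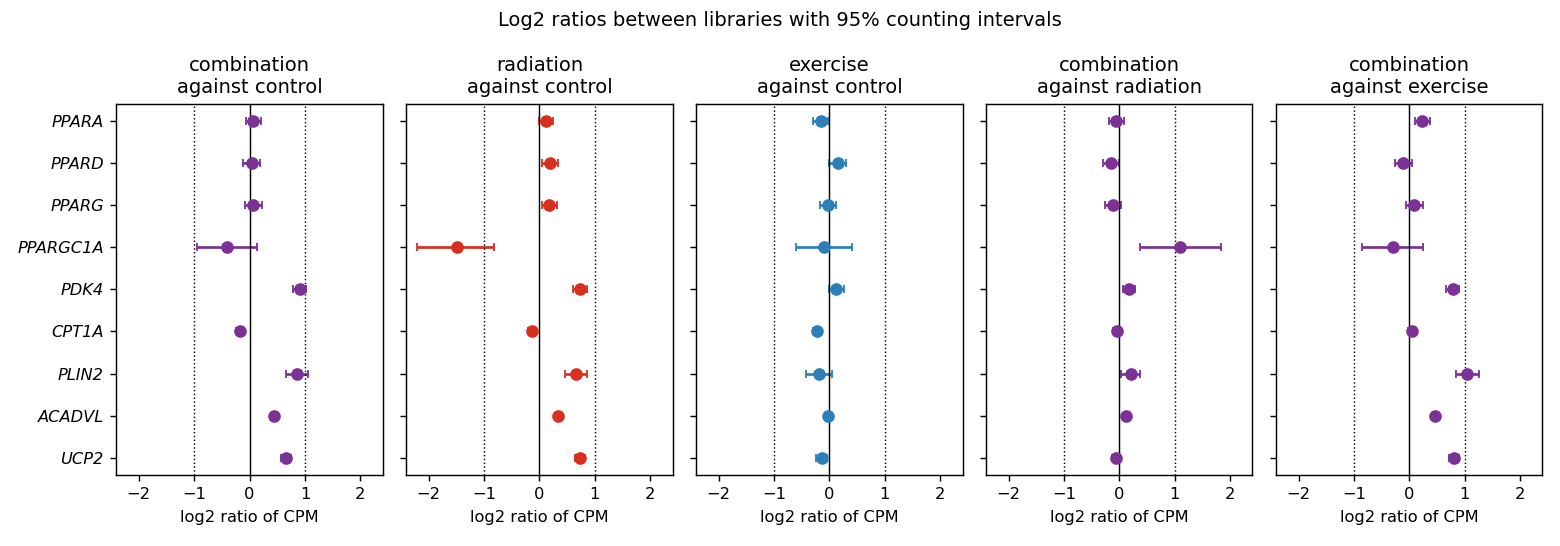
Log2 ratio of CPM (horizontal axes) of each of the 9 genes (rows) in the 5 comparisons between libraries, with 95% counting intervals as bars and dotted lines at 2-fold. PDK4, PLIN2, ACADVL and UCP2 lie right of 0 in each comparison of an irradiated with an unirradiated library, and PPARGC1A lies past the dotted line at -1.47 in the radiation against the control library.

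Taking all 9 genes, the median log2 ratio was 0.07 in the combination against the control library, 0.19 in the radiation against the control library and -0.10 in the exercise against the control library. Over all genes tested it was -0.01 in the combination, 0.00 in the radiation and 0.00 in the exercise library, each against the control. In the combination against the exercise library the 9 genes had a median of 0.23, where all genes had -0.02, and in the combination against the radiation library they had -0.04, where all genes had 0.00. Ratios beyond counting error were common among all genes at this depth. In the combination against the control library, 4 of the 9 genes were higher beyond it (25.6% of all genes) and 1 was lower (26.6%). In the radiation against the control library 6 were higher (24.1%) and 2 lower (22.9%), and in the exercise against the control library 1 was higher (20.1%) and 3 lower (17.9%). In the combination against the radiation library 4 were higher (20.5%) and 1 lower (20.6%), and in the combination against the exercise library 5 were higher (26.7%) and 0 lower (28.9%).

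To set irradiated against unirradiated tumors, the 4 libraries were also fitted together with edgeR's quasi-likelihood test, with radiation and exercise as additive terms. This leaves 1 residual degree of freedom, which measures how far the 4 libraries depart from additivity and not the spread between tumors of a group. Both irradiated libraries were above both unirradiated ones for 6 of 9 genes, where 26.2% of all genes were, and below for 1 of 9, where 27.6% were. In the fit, 4 of the 9 genes passed an adjusted p of 0.05 as higher in irradiated tumors, where 5.55% of all genes did, and 0 of 9 as lower, where 3.75% did. The 9 genes were chosen with earlier results of these data known, so their counts describe this set only. For a single gene, an exact permutation test of 2 libraries against 2 cannot give a p below 0.333.

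UCP2 rose by 0.76 on the log2 scale in irradiated tumors (edgeR, Benjamini-Hochberg adjusted p = 0.000385). PDK4 rose by 0.76 (adjusted p = 0.000635), PLIN2 by 0.85 (adjusted p = 0.00459) and ACADVL by 0.40 (adjusted p = 0.0400). With libraries scaled by their totals alone, ACADVL lost this call (edgeR, adjusted p = 0.0521, with 0.00728 to 0.0521 over the settings tried), and DESeq2 called the same number of genes, 4 of 9. PPARGC1A had a log2 difference of -0.84 with an unadjusted p of 0.0277 and did not pass (edgeR, adjusted p = 0.151). The differences of PPARA (0.18), PPARG (0.14), PPARD (0.04) and CPT1A (-0.04) did not pass either, with adjusted p between 0.365 and 0.897 in edgeR. The median over the 9 genes was 0.18, and over all genes tested it was -0.01.

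Between exercised and sedentary tumors, 0 of 9 genes passed in the same edgeR fit, and 0 of 9 had an unadjusted p below 0.05 in edgeR or in DESeq2. Among all genes 0.0567% were called higher and 0.0258% lower in exercised tumors. PPARGC1A had the largest difference of the 9, at 0.40 on the log2 scale (edgeR, adjusted p = 0.988). PDK4 had 0.15 and CPT1A -0.14, with adjusted p of 0.972 and 0.982 in edgeR.

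The 4 libraries also give, for each gene, the difference between the exercise ratio with radiation and the exercise ratio without it. For PPARGC1A the combination against the radiation library gave a log2 ratio of 1.07, while the exercise against the control library gave -0.10, a departure from additivity of 1.17 (0.33 to 2.01). PLIN2 departed by 0.39 (0.10 to 0.67), CPT1A by 0.19 (0.10 to 0.29) and ACADVL by 0.14 (0.08 to 0.20). PPARD departed in the other direction, by -0.30 (-0.51 to -0.09). For PPARA, PPARG, PDK4 and UCP2 the interval included 0. These intervals hold counting error alone. Among all genes 97.5% had a smaller absolute departure than PPARGC1A, 75.6% than PLIN2, 66.5% than PPARD, 49.2% than CPT1A and 37.6% than ACADVL. These shares compare genes of all depths, and counting error is larger at low counts. PPARGC1A had a mean of 53 reads, and 13.0% of tested genes had a lower mean count.

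The wider pathway was followed in 8 lists with 115 other genes, of which 102 had a mean count of at least 20. In irradiated against unirradiated tumors, 7 of the 102 (6.86%) were higher and 1 (0.98%) was lower in the edgeR fit, where 5.55% and 3.75% of all genes were. The list of other PPAR target genes gave 2 of 10 higher and 0 lower, with a median log2 difference of 0.23. ANGPTL4, a secreted inhibitor of lipoprotein lipase, had 2906 reads in the combination library, 2981 in the radiation library, 1655 in the exercise library and 1641 in the control library, and rose by 0.89 (edgeR, adjusted p = 0.000114). VNN1, a pantetheinase, rose by 0.74 (edgeR, adjusted p = 0.0228).

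The lipid droplet and lipolysis list gave 2 of 15 higher and 1 lower, with a median of 0.10, where 5.55% of all genes were higher and 3.75% lower. PNPLA2, the main triglyceride lipase, rose by 0.44 (edgeR, adjusted p = 0.0103), as did HILPDA, an inhibitor of that lipase, by 0.45 (adjusted p = 0.0204). PNPLA3, a lipid droplet protein related to PNPLA2, fell by 1.04 on the log2 scale (edgeR, adjusted p = 0.0303), with 59 reads in the combination library, 41 in the radiation library, 147 in the exercise library and 73 in the control library. Its exercise library was itself above the control library by 2-fold (log2 ratio 1.05).

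Each oxidation list held 1 higher gene and none lower, where 5.55% of all genes tested were higher and 3.75% lower. A log2 difference above 0 was found for 47.8% of all genes tested. In mitochondrial beta-oxidation, 1 of 15 genes rose, ETFB, an electron acceptor of the dehydrogenases (0.38, edgeR, adjusted p = 0.0266), and 12 of 15 had a log2 difference above 0 with a median of 0.12. In peroxisomal oxidation, 1 of 16 rose, PHYH, which begins the breakdown of branched fatty acids (0.41, edgeR, adjusted p = 0.0467), and 13 of 16 were above 0 with a median of 0.20. Among relatives of PDK4 and UCP2, 1 of 10 rose, the kinase PDK1 (0.44, edgeR, adjusted p = 0.0264), with a median of 0.03 for the list.

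For 3 lists no gene passed in either direction, where 5.55% of all genes tested were higher and 3.75% lower. The carnitine shuttle list, which holds the muscle form CPT1B, gave 0 of 7 with a median of 0.06. CPT1B had 1180 reads in the combination library, 1204 in the radiation library, 1578 in the exercise library and 1422 in the control library. Both irradiated libraries were below the others, as for 27.6% of all genes tested. Fatty acid uptake and activation gave 0 of 13 with a median of 0.04. PPAR partners and coregulators gave 0 of 16 with a median of -0.16, and 2 of 16 genes were above 0, where 47.8% of all genes tested were. In that list PPARGC1B, the relative of PPARGC1A, had 118 reads in the combination library, 244 in the radiation library, 229 in the exercise library and 262 in the control library, so that the combination library alone stood low (log2 ratio -1.02 against the control). PPARGC1A was low in the radiation library and PPARGC1B in the combination library.

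Between exercised and sedentary tumors, 0 of the 102 genes passed in edgeR, where 0.0567% of all genes were higher and 0.0258% lower. At 2-fold between single libraries, CREB3L3, a transcription factor of fasting metabolism in liver, was higher in the exercise than in the control library, at 66 reads against 23 (1.55). VNN1 (1.07) and CD36, a fatty acid transporter (1.05, on 30 reads in the combination library and 15 in the exercise library), were higher in the combination than in the exercise library, and PNPLA3 was lower (-1.23). In the combination against the exercise library, 2 of the 102 genes were thus higher and 1 lower, where 2.92% of all genes were higher and 3.06% lower.

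**Figure D3:**
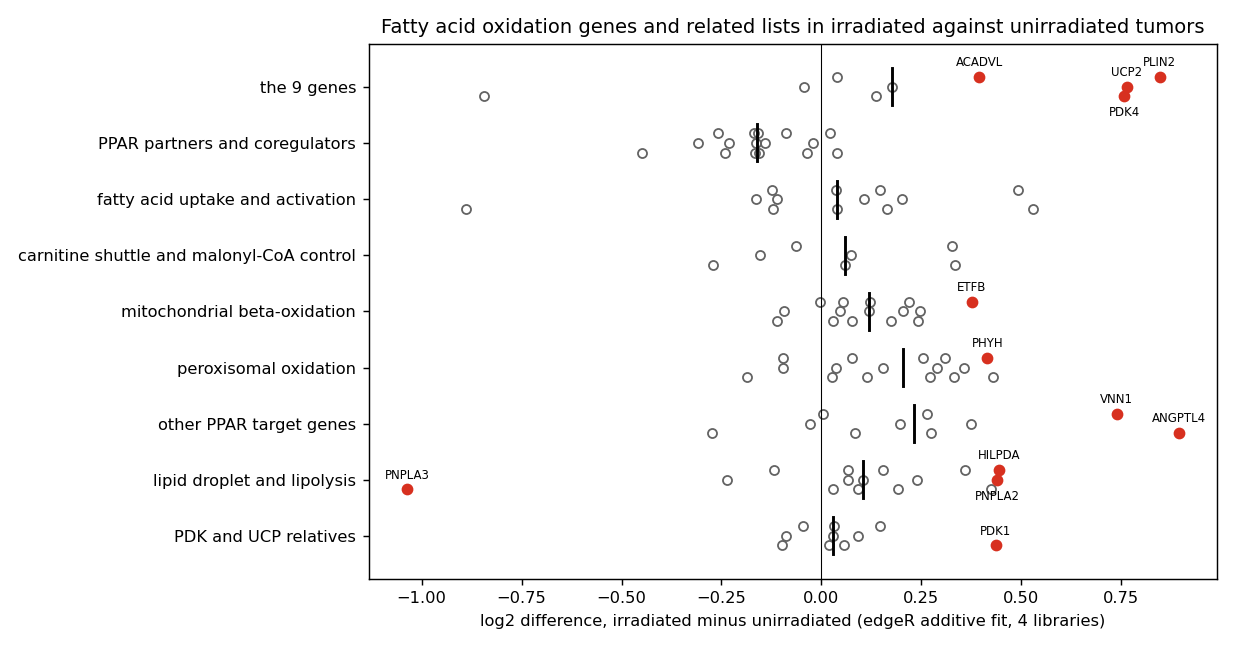
Log2 difference between irradiated and unirradiated tumors in the edgeR additive fit (horizontal axis) for the 9 genes and the 102 tested genes of the 8 pathway lists (rows); each circle is a gene, filled red with its symbol where the adjusted p is below 0.05, and black bars are list medians. ANGPTL4 lies farthest right at 0.89 and PNPLA3 farthest left at -1.04.

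Markers of other cell types that a xenograft can hold also differed between irradiated and unirradiated tumors. Skeletal muscle markers summed to 97.4 CPM in the combination library, 96.3 in the radiation library, 51.98 in the exercise library and 52.85 in the control library. Of 14 tested muscle genes, 7 were higher in irradiated tumors in edgeR and 1 was lower, where 5.55% of all genes were higher and 3.75% lower. The lower gene was TNNT1 (log2 difference -0.94), and MB was also below 0 (-0.47) without passing. MYH1, a fast muscle myosin, had 258 reads in the combination library, 278 in the radiation library, 11 in the exercise library and 0 in the control library. None of the 18 muscle markers was at 0 in all 4 libraries, but TNNT3 had at most 3 reads in each. MYLPF had 2 reads in the combination, 5 in the radiation, 0 in the exercise and 2 in the control library. Muscle is a known site of PDK4, ACADVL and PPARGC1A expression, and its part in the differences of the 9 genes was not tested.

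Of 6 tested macrophage genes, 2 passed in edgeR as higher in irradiated tumors, CD68 and LYZ, where 5.55% of all genes did. CD14 had a log2 difference of 0.76, while CSF1R (-0.15), ADGRE1 (-0.16) and ITGAM (-0.41) were below 0, and none of these passed. The list summed to 497.8 CPM in the combination, 432.7 in the radiation, 366.4 in the exercise and 375.9 in the control library. CSF1R alone had 250.6, 239.0, 266.9 and 278.2 CPM in the same order. PTPRC, an untested marker, had 15, 8, 14 and 7 reads, and TYROBP was at 0 throughout. The 12 adipocyte markers summed to 62.75 CPM in the combination library, 48.02 in the radiation library, 40.66 in the exercise library and 45.06 in the control library, with RETN and ADRB3 at 0 throughout and 0 of 5 tested genes passing. CFD alone had 41.3, 30.6, 25.5 and 27.4 CPM in the same order, while FABP4 had 0, 0, 2 and 9 reads. ADIPOQ, a defining fat cell gene, had 5 reads in the combination library, 3 in the radiation library, 7 in the exercise library and 0 in the control library. Macrophages and fat cells are known to express UCP2 and PLIN2, and their part was not tested.

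Of 8 tested fibroblast genes, 3 collagens fell in irradiated tumors (COL1A1, COL1A2 and COL3A1) and the list summed to 189.3 CPM in the combination library, 217.6 in the radiation library, 339.5 in the exercise library and 333.3 in the control library. The endothelial list summed to 8.519 CPM in the combination library, 12.59 in the radiation library, 17.63 in the exercise library and 22.12 in the control library. PECAM1 alone had 5.53, 9.60, 14.01 and 18.34 CPM in the same order. Of 2 tested genes, PECAM1 was lower in irradiated tumors in edgeR and ESAM (log2 difference -0.25) did not pass. CDH5, an untested marker, had 16, 16, 15 and 21 reads in the same order. The keratinocyte list summed to 225.6 CPM in the combination, 276.0 in the radiation, 143.1 in the exercise and 171.0 in the control library. KRT15 alone had 187.8, 239.2, 101.3 and 130.7 CPM in the same order, and KRT1 was at 0 throughout. Of 4 tested genes, KRT15 passed in edgeR as higher in irradiated tumors (log2 difference 0.88). KRT5 (-1.55) and KRT14 (-1.68) passed as lower. Among all genes 5.55% passed as higher and 3.75% as lower. The part of fibroblasts, endothelial cells and keratinocytes in the differences of the 9 genes was not tested. All reads were counted on the human genome, and how mouse reads were handled is not given in the sources used here.

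**Figure D4:**
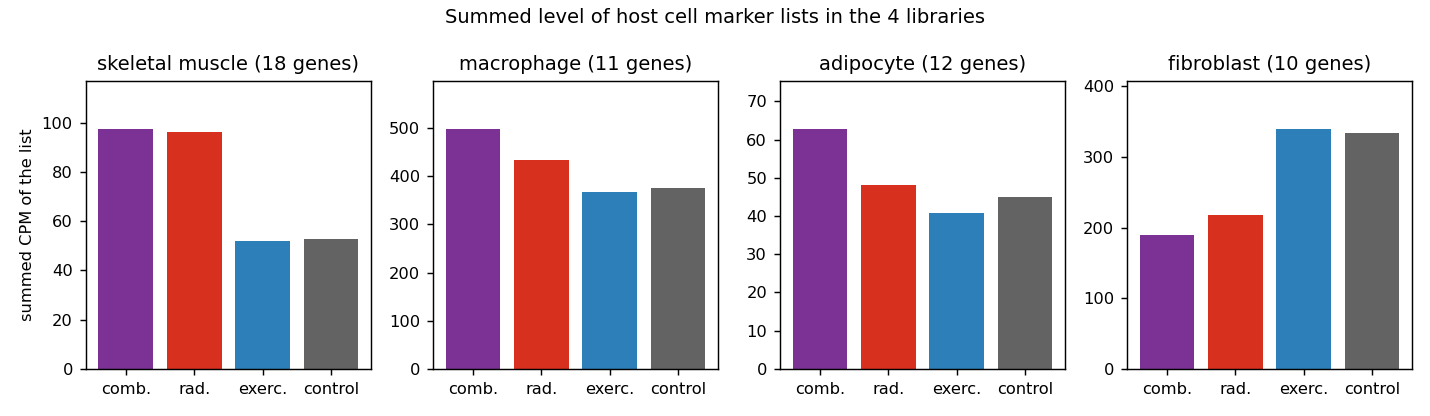
Summed CPM (vertical axes, each from 0) of skeletal muscle, macrophage, adipocyte and fibroblast marker lists in the combination, radiation, exercise and control libraries; each bar is 1 library and has no error. Muscle markers sum to 97.4 and 96.3 CPM in the irradiated libraries, against 51.98 and 52.85 CPM in the unirradiated ones.

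For the 2 genes whose highest and lowest library differed by at least 2-fold, the genes of most similar pattern were sought among those with a mean count of at least 100, by the Euclidean distance of centered log2 CPM over the 4 libraries. For PPARGC1A the nearest of 15385 genes was SAMD11 (distance 0.213), with 650 reads in the combination library, 312 in the radiation library, 721 in the exercise library and 781 in the control library. MIR1244-1 (0.390) and LOXL1 (0.424) followed. For PLIN2 the nearest of 15384 genes was RRAGD (0.0543), with 500 reads in the combination library, 449 in the radiation library, 256 in the exercise library and 309 in the control library, followed by RTL5 (0.0644) and SEZ6L2 (0.0670). With 4 points per gene, many genes can be this near.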

How the data were processed

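PolyA RNA of 4 xenograft libraries, 1 per group, was sequenced with a stranded kit. The authors trimmed reads with cutadapt, aligned them to GRCh38 with Bowtie2 2.3.4.1, an aligner that does not splice reads, and counted them per gene with featureCounts 1.6.0. They deposited raw read counts, used here, and FPKM values, which per 6512 genes checked used the gene span as length in 84.9% of cases (within 2%). Genes averaging 20 reads or more over the libraries were kept. Ratios were of TMM-scaled CPM after adding 0.5 counts, with Clopper-Pearson 95% intervals for folds and Poisson intervals for levels, and were called at 2-fold. PCR reads are not independent molecules, so these cover counting error only. The additive fit used edgeR 4.0.16 in R 4.3.3, with DESeq2 1.42.0 as alternative, and Python 3.11.15 did the rest. The edgeR step was tested on simulated counts whose changes were additive, so that test does not cover departures from additivity. The 6 alternatives for ratios were DESeq2 size factors, total-count scaling, a prior of 2 counts, no minimum count, a minimum of 100 and the deposited FPKM with 0.1 added. Named genes are the 9 genes, list genes past 2-fold, the 3 nearest patterns of any gene varying 2-fold, and, chosen after their values were seen, list genes that passed the edgeR test. The genes, the 8 pathway lists and the 8 marker lists were chosen with earlier results of these data known. Of 1 list, a gene is not reported here and was left out of the counts.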

Additional observations from a re-analysis of the deposited data

Results flagged for a closer look

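The exercise ratio had opposite signs with and without radiation for 4 of the 9 genes. For PPARGC1A the log2 ratio was 1.07 in the combination against the radiation library and -0.10 in the exercise against the control library, a difference of 1.17. For PLIN2 the ratios were 0.20 and -0.18 (difference 0.387), for ACADVL 0.12 and -0.02 (difference 0.14) and for PPARD -0.15 and 0.15 (difference -0.301), in the same pair of comparisons. PPARD was the one of the 4 for which both ratios exceeded counting error, and both did so only narrowly. Its fold was 0.900 (0.811 to 0.999) in the combination against the radiation library. In the exercise against the control library it was 1.11 (1.00006 to 1.23). The radiation ratio had opposite signs with and without exercise for PPARD, at -0.11 in the combination against the exercise library and 0.19 in the radiation against the control library (difference -0.301), and for CPT1A, at 0.05 and -0.14 (difference 0.193). For both genes the ratio with exercise was within counting error, at a fold of 0.925 (0.832 to 1.03) for PPARD and 1.04 (0.988 to 1.09) for CPT1A. The differences between ratios were not tested, since each group has 1 library.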

How the results depend on the processing

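Of 319 values of the 9 genes recomputed under other settings, 8 log2 ratios moved beyond their counting interval and 1 difference lost its call (ACADVL in edgeR with total-count scaling). PPARGC1A was not called with a minimum of 100 reads, which removes it (mean count 53), nor in FPKM, where it lies far below the 0.1 added. The genes called lower in the radiation than in the control library, and those called higher in the combination than in the radiation library, therefore numbered 0 under each of these settings, against 1. In FPKM the count higher in the combination than in the exercise library was 0, against 1 (PLIN2, at a log2 ratio of 0.86). Total-count scaling shifted the median log2 ratio by -0.0751 in the combination against the control library. There it gave 45.5% higher among genes past 2-fold, against 56.5%, and in the radiation against the control library 57.6%, against 67.8%. It moved ACADVL to 0.37 and 0.25 and CPT1A to -0.25 and -0.21 in these comparisons. Of 63 values of the 9 genes, 5 changed sign in some setting, none of them 0.2 or more in size: PPARA, PPARD and PPARG in the combination against the control library, and PPARD in both edgeR contrasts. Genes past 2-fold in the combination against the control library numbered 441 higher and 340 lower, 3014 and 3373 with no minimum, 227 and 96 with a minimum of 100, and 160 and 81 in FPKM. The edgeR fit called 1803 genes for radiation and 16 for exercise, 2474 and 48 with total-count scaling, 2650 and 148 with no minimum, and DESeq2 949 and 33. No paired analysis was possible because each group has 1 library, and leaving out a library leaves no residual degree of freedom.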
